A study of Rattus norvegicus with 218 samples.

Results

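Transcripts of 4 serotonin receptor genes, Htr1a, Htr2a, Htr2c and Htr3b, were measured in rat neurons from the DMV, the dorsal motor nucleus of the vagus, where many motor neurons of the vagus nerve lie. They were taken by gene symbol from a panel of 168 RT-qPCR assays for 165 genes, and the panel held 10 serotonin receptor genes in all. Neurons stained for NeuN were cut out by laser capture from the left and right DMV of male Sprague Dawley rats, as single cells or as pools of 2 to 8 cells. The 3 naive animals stand for the unperturbed state, the 4 sham animals had the femoral vessels exposed without ligation, and the 3 RIPC (remote ischemic preconditioning) animals had them tied and released in both legs. Sham and RIPC animals were both under ketamine/xylazine. The labels name the femoral arteries, and the methods the vein and the artery. Per the labels, operated animals were sampled 2.5 h after reperfusion. Several samples came from each animal, and the animal is the replicate. Each reaction gave a threshold cycle (Ct), and a lower Ct means more transcript. A gene without a Ct in a sample was below the limit of detection and is called not detected.

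Serotonin reaches the DMV mainly from raphe neurons of the medulla and modulates the firing of vagal motor neurons. The receptors it acts on belong to families with different couplings. Htr1a encodes a receptor coupled to Gi proteins, which generally inhibits neurons and opens inwardly rectifying potassium channels. Htr2a and Htr2c encode receptors coupled to Gq proteins, which generally excite neurons through phospholipase C. Htr3b encodes a subunit of the serotonin-gated cation channel and forms working channels only together with the Htr3a subunit; Htr3a was not analysed here.

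Of 213 samples, 186 gave a value in at least 25% of the assays and entered the comparisons, 98 single neurons and 88 pools. Naive animals gave 57 single neurons and 24 pools, sham animals 16 and 46, and RIPC animals 25 and 18. Naive replicate 3 alone gave 54 of the 98 single neurons. The median number of assays with a value was 69 in single neurons and 96 in pools. Per animal, the mean in pools ran from 65.4 in RIPC replicate 1 to 100.2 in sham replicate 3. Neuronal markers were present in most single neurons, with Camk2a in 96.9% and Scn2a in 95.9%, and Chat, the enzyme of acetylcholine synthesis, in 69.4%. The astrocyte transcript Gfap was also detected in 80.6% of single neurons. In neurons with and without Gfap, Htr1a was found in 75.9% and 63.2%, Htr2a in 48.1% and 31.6%, Htr2c in 22.8% and 15.8%, and Htr3b in 49.4% and 63.2%; no test was made. One single neuron labelled RIPC replicate 3 has a title like those of RIPC replicate 2. The comparisons of sides and of pools with single neurons were also computed without it. All other results with single neurons kept it.

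Htr1a, the inhibitory receptor, was the member detected most often, in 147 of 186 samples (79.0%, 95% Wilson interval 72.6 to 84.3%). Htr3b, the channel subunit, followed with 125 samples (67.2%, 60.2 to 73.5%), then Htr2a with 98 (52.7%, 45.5 to 59.7%) and Htr2c with 53 (28.5%, 22.5 to 35.4%). In pools alone Htr1a and Htr3b were found about equally often, in 75 and 74 of 88, and in RIPC pools Htr3b in 16 and Htr1a in 14 of 18. Over all samples the intervals of Htr1a and Htr3b overlapped, and those of Htr2a and Htr2c lay apart from each other. Such intervals cover counting error only, since samples of an animal are not independent. The median over all 165 genes was 50.5%, so that Htr1a ranked 40th, Htr3b 62nd, Htr2a 82nd and Htr2c 106th.

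The median Ct was 14.8 for Htr1a, 12.6 for Htr2a, 14.6 for Htr2c and 19.4 for Htr3b. Ct is not compared between genes as an amount of transcript here, because primer efficiencies differ between assays. By raw Ct, Htr1a was the steadiest of the members, with an SD of 1.33 cycles over 147 samples. This was the 8th smallest SD of the 137 genes with at least 20 values. Htr2a had an SD of 1.49 cycles, Htr2c 1.98 and Htr3b 2.31, against a median of 1.98 over those genes. Raw Ct is not corrected for the amount of material in a sample. Taken against the median Ct of the sample's 35 most often detected genes, the order of Htr1a and Htr2a was reversed. The SD was then 1.53 for Htr1a and 1.29 for Htr2a, and Htr2a was also the steadier in single neurons and in pools.

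**Figure D1:**
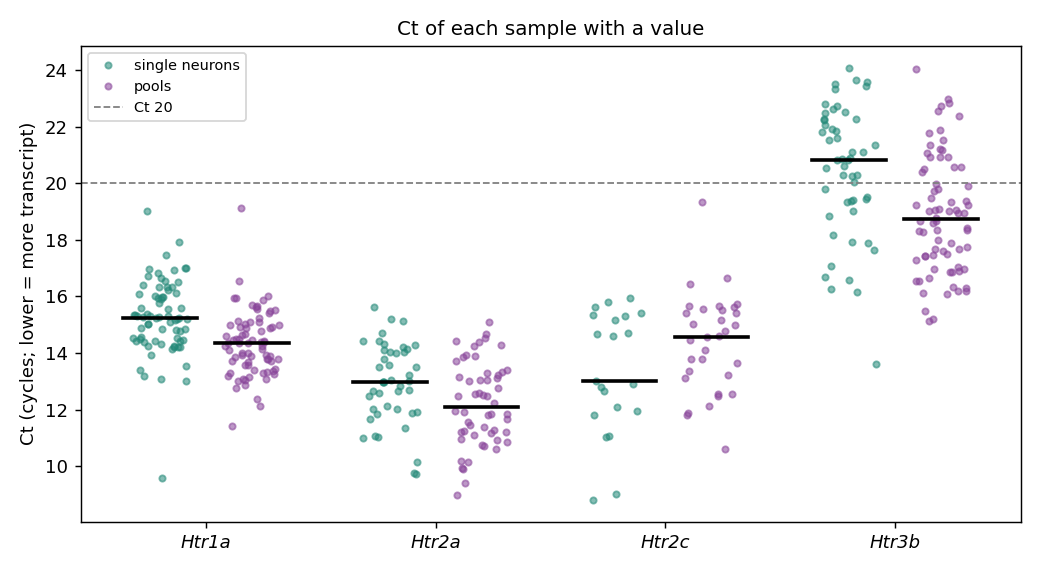
Ct in cycles of every sample that passed and had a value, for each of the 4 genes in single neurons (green) and pools (purple). Black bars are medians and the dashed line is Ct 20. Htr3b was the only one of the 4 with values above the line, 53 of 125.

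Late values belonged to Htr3b alone among the members. A Ct above 20 was found for Htr3b in 53 of 125 samples with a value (42.4%), the 6th largest share among the 137 genes, and for Htr1a, Htr2a and Htr2c in none. Over all genes, 681 of 14886 values (4.57%) were late. In single neurons 33 of 51 Htr3b values (64.7%) were late, against 20 of 74 in pools. By treatment, late values in single neurons made up 20 of 30 in naive, 5 of 8 in sham and 8 of 13 in RIPC animals. In pools, late values made up 5 of 20 in naive, 6 of 38 in sham and 9 of 16 in RIPC animals. The 9 came from RIPC replicate 1 (5 of 8) and replicate 2 (4 of 7), with none of 1 in replicate 3. No test was made on these counts. RIPC pools also had fewer assays with a value (median 85) than sham pools (100.5), and the part of that in the late values was not tested.

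The assay of Htr1a was run in duplicate. Over 213 samples the duplicates made the same call in 96.2%, and in the 155 samples with both values their difference had an SD of 0.139 cycles. Repeat runs of 5 single neurons were less alike. Htr1a had a value in both runs of 2 neurons and in 1 run of the other 3, and Htr2a in both runs of 1 and in 1 run of 2, while Htr2c kept its call in all 5. The values of Htr2c in 2 neurons differed by -1.41 and 3.01 cycles, first run minus second, and those of Htr2a in 1 neuron by 3.06. In the 2 neurons with Htr1a in both runs the values differed by -1.29 and -1.48 cycles, about as much as the SD of 1.33 between samples. In the 3 neurons with Htr3b in both runs the differences were 2.35, -3.71 and -3.31 cycles.

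The treatments were compared to see whether RIPC or sham surgery shifts gene expression in the DMV. None of the 4 genes passed the test between treatments, by detection or by level; Htr2c was tested by detection only. In pools, the share with Htr1a was 66.7%, 70.0% and 100% in the naive animals, 100%, 81.8%, 72.7% and 100% in the sham animals, and 100%, 62.5% and 50% in the RIPC animals. The group means were 78.9% ± 18.4 (SD, n = 3), 88.6% ± 13.6 (n = 4) and 70.8% ± 26.0 (n = 3), and the groups overlapped. RIPC minus sham was -17.8 percentage points (95% interval -48.7 to 13.1, limma adjusted p = 0.994). Leaving out RIPC replicate 1 gave -32.4 and leaving out RIPC replicate 3 gave -7.39. It turned to 7.37 in single neurons and was -0.68 over both sample types.

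Like Htr1a and Htr3b, the Gq-coupled receptors Htr2a and Htr2c varied more between animals of a treatment than between treatments. Htr2a was found in 66.7%, 20% and 90.9% of pools of the naive animals, 71.4%, 36.4%, 36.4% and 88.2% of the sham animals, and 25%, 100% and 100% of the RIPC animals. The ranges of the 3 treatments overlapped, and RIPC minus naive was 15.8 points (-33.0 to 64.6, limma adjusted p = 1). It was 47.4 points with 50% of the assays required (SE 25.5, limma adjusted p = 0.759). Leaving out 1 animal moved it to between -3.79 (without naive replicate 2) and 40.8 (without RIPC replicate 1). RIPC replicate 1, at 25%, was also the animal with the fewest assays per pool. Htr2c was found in 66.7%, 40.0% and 36.4% of pools of the naive animals, 14.3%, 54.5%, 36.4% and 41.2% of the sham animals, and 12.5%, 25% and 50% of the RIPC animals. Its means stood at 47.7% ± 16.5, 36.6% ± 16.7 and 29.2% ± 19.1 in naive, sham and RIPC animals. RIPC minus naive was -18.5 points (-49.9 to 12.9, limma adjusted p = 1), and the groups overlapped. It was -28.9 without RIPC replicate 3 and -9.02 without naive replicate 1.

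For Htr3b the size of the differences depended on which samples and values were used, and none passed the test. Its share of pools was 66.7%, 90.0% and 81.8% in naive animals, 100%, 90.9%, 45.5% and 94.1% in sham animals, and 100%, 87.5% and 50% in RIPC animals. RIPC minus naive was -0.33 points, with an interval of -36.3 to 35.7 points (limma adjusted p = 1). With Ct above 20 taken as not detected, RIPC minus naive was -22.1 points and RIPC minus sham -26.3 (limma adjusted p = 1 and 0.995). With 50% of the assays required they were -24.2 and -16.9 points (limma adjusted p = 0.852 and 0.911). In single neurons sham minus naive was 30.6 points, against 3.13 in pools (limma adjusted p = 0.765 and 0.960). The naive mean in single neurons averages 2 animals, replicate 2 with Htr3b in 0 of 3 neurons and replicate 3 in 30 of 54. Counted over all neurons, Htr3b was found in 52.6% of naive and 50% of sham neurons. With this number of animals the interval for RIPC minus naive stayed wide, and differences within it remain possible. It does not mark the smallest difference that could be called, since calls were adjusted over all genes. Over all genes, limma called 0 of 139 (0%) by share in each contrast. At an unadjusted p under 0.05 there were 3 genes in sham against naive, 5 in RIPC against naive and 1 in RIPC against sham, with no member among them. Exact permutation tests over animals gave a p of 0.3 to 1 for the members; the design cannot go below 0.0571 for 4 animals against 3 and 0.1 for 3 against 3.

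**Figure D2:**
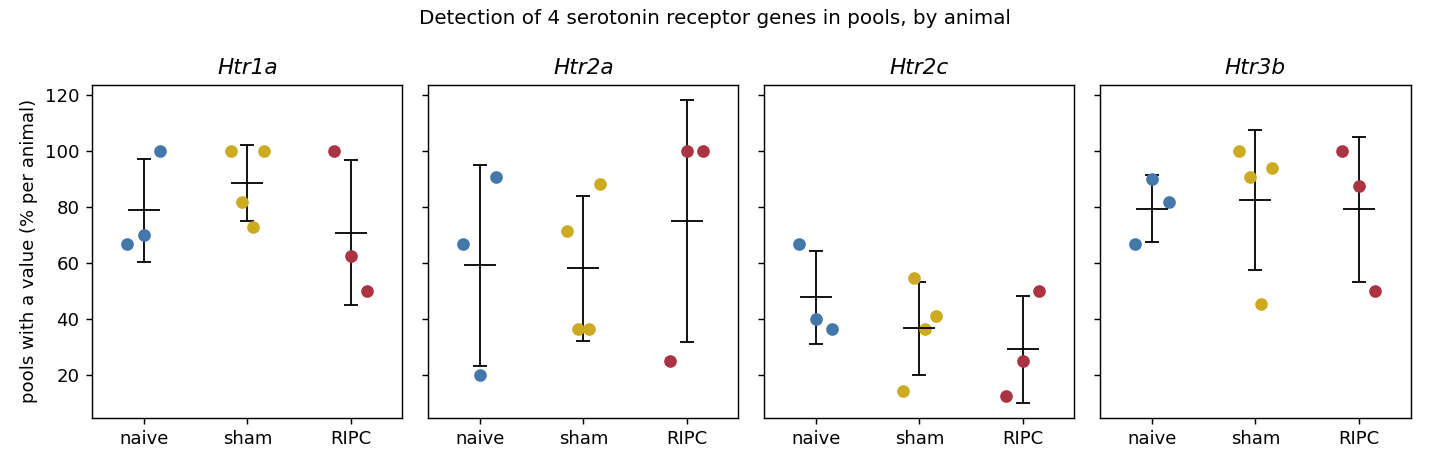
Percent of pools with a value per animal (points) in naive, sham and RIPC animals, with the mean and SD of each treatment in black. The treatments overlap for all 4 genes, and within RIPC the Htr2a shares run from 25% to 100%.

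The level, the median Ct of the sample's 35 most often detected genes minus the Ct of the gene, is on a log2 scale and higher where more transcript was present. For Htr2a its mean in pools was -0.10 ± 1.02 in naive animals (SD, n = 3), 0.20 ± 0.76 in sham animals (n = 4) and 0.59 ± 0.60 in RIPC animals (n = 3). The difference between RIPC and naive was 0.69 (-0.78 to 2.15, limma adjusted p = 0.931). It was 0.18 without naive replicate 1, 0.36 without RIPC replicate 1 and 1.199 without naive replicate 3. For Htr1a the level was -0.93 ± 0.84, -1.10 ± 0.51 and -0.60 ± 1.55, where only 2 RIPC animals had enough values. Htr3b stood at -5.62 ± 0.66, -5.58 ± 0.81 and -6.03 ± 1.42, again with 2 RIPC animals. RIPC minus naive and RIPC minus sham were -0.41 and -0.45, and turned to 0.97 and 0.73 with Ct above 20 taken as not detected and to 0.59 and 0.56 without RIPC replicate 2. None of the level differences passed the test. Htr2c stood at -1.76 ± 0.79 in naive and -1.44 ± 1.02 in sham animals (n = 3 each), and in the RIPC animals at -0.37 in replicate 2 (2 pools), and at -4.69 and -3.96 in replicates 1 and 3 (1 pool each). It was not tested by level, since genes with fewer than 2 animals in any treatment were left out. Over all genes, limma called 0 of 99 (0%) by level in each contrast, and 0, 4 and 3 genes had an unadjusted p under 0.05 in sham against naive, RIPC against naive and RIPC against sham.

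Since Htr1a and the Htr2 receptors act in opposite directions on excitability, their balance within a sample was also compared. Over single neurons and pools with both genes, the Ct of Htr2a minus that of Htr1a averaged -0.72 ± 2.50 cycles in naive animals (SD, n = 2), -1.64 ± 0.89 in sham animals (n = 4) and -1.87 ± 1.11 in RIPC animals (n = 3). Naive replicate 1, at 1.05 from 2 samples, stood apart from naive replicate 3, at -2.48 from 33 samples. RIPC and sham differed by -0.23 cycles (exact permutation p = 0.686, adjusted 0.823 over 6 comparisons). The Ct of Htr2c minus that of Htr1a averaged -0.23 ± 1.61 cycles in naive (n = 2), 0.32 ± 0.77 in sham (n = 3) and -0.47 ± 0.92 in RIPC animals (n = 2). None of the 6 comparisons passed, and the smallest p they could reach lay between 0.0571 and 0.333.

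The study also asked whether left and right DMV differ. Detection of the members did not differ beyond the spread between animals. Over 9 animals with at least 2 samples on each side, Htr1a was found in 82.8% ± 18.7 of left and 75.05% ± 15.0 of right samples, and it was higher on the left in 6 animals and lower in 3. The difference was 7.73 points (95% interval -7.02 to 22.5, limma adjusted p = 0.970). It was 3.34 without sham replicate 2, 12.9 without RIPC replicate 2 and -4.79 in pools alone. Htr2a differed by 3.67 points, Htr2c by 1.11 and Htr3b by -3.22, with 4 or 5 animals on either side of 0 for Htr2a and Htr3b. Limma called 0 of 145 genes (0%), with 6 at an unadjusted p under 0.05. The left minus right difference did not differ between treatments for any member in limma's F test (adjusted p = 0.997 for each of the 4), which called 0 of 145 genes (0%), with 4 at an unadjusted p under 0.05.

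By level, Htr2c was the member with the largest difference between sides. Its left and right levels were 0.50 and -1.83 in naive replicate 2, 0.23 and -1.64 in naive replicate 3, -0.60 and -0.46 in sham replicate 2, -0.37 and -1.21 in sham replicate 3, -1.55 and -2.17 in sham replicate 4, and -0.15 and -0.90 in RIPC replicate 3. The left was higher in 5 of these 6 animals, with a mean difference of 1.05 (95% interval 0.22 to 1.87). It did not pass over all genes (limma adjusted p = 0.918, unadjusted 0.0185, exact sign-flip p = 0.0625, where the smallest possible is 0.0312). Limma called 0 of 113 genes (0%) by level between sides, with 3 at an unadjusted p under 0.05. The other members differed by 0.09 (Htr1a), 0.32 (Htr2a) and 0.24 (Htr3b). That of Htr2a, over 5 animals, ran from 0.16 without sham replicate 4 to 0.57 without naive replicate 3, and was 0.063 with no limit on assays.

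Pools were compared with single neurons of the same animal in the 8 animals that had at least 2 of each. Htr3b was detected more often in pools in all 8. In naive replicate 2 it was found in 9 of 10 pools and in none of 3 single neurons. In pools and single neurons it was found in 81.8% and 55.6% of samples in naive replicate 3, 100% and 28.6% in sham replicate 1, and 90.9% and 66.7% in sham replicate 2. The pairs were 94.1% and 80% in sham replicate 4, 100% and 50% in RIPC replicate 1, 87.5% and 60.0% in RIPC replicate 2, and 50% and 45.5% in RIPC replicate 3. The mean difference was 38.5 points (18.2 to 58.8, limma adjusted p = 0.0179; exact sign-flip p = 0.00781, the smallest possible). Limma called 20 of 146 genes (13.7%), all higher in pools. The Htr3b call was lost without sham replicate 1 (33.8 points, limma adjusted p = 0.0564). The number of genes called was 9 without sham replicate 1, 12 without naive replicate 3 and 54 without RIPC replicate 1.

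Htr2a, at 33.6 points more in pools (10.7 to 56.5), lay just outside the threshold (limma adjusted p = 0.0510). It was higher in pools in 6 animals, equal in sham replicate 1 and lower in RIPC replicate 1 (25% against 50%). Htr2c was 12.05 points higher in pools (-1.66 to 25.8, limma adjusted p = 0.196), and Htr1a 11.5 points (-6.72 to 29.7, limma adjusted p = 0.349). The median over the 146 genes was 12.8 points, and 90.4% of them were higher in pools. Without RIPC replicate 3, which had 2 pools, Htr1a was 18.99 points higher. By level, Htr1a, Htr2a and Htr3b differed by -0.56, -0.54 and -0.00 between pools and single neurons of an animal. Limma called 0 of 89 genes (0%) by level, with 8 at an unadjusted p under 0.05, and Htr2c was left out, with values of both kinds in 1 animal (naive replicate 3, -1.52). Over all samples the mean level of Htr2c was 0.45 in 21 single neurons and -1.67 in 32 pools.

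**Figure D3:**
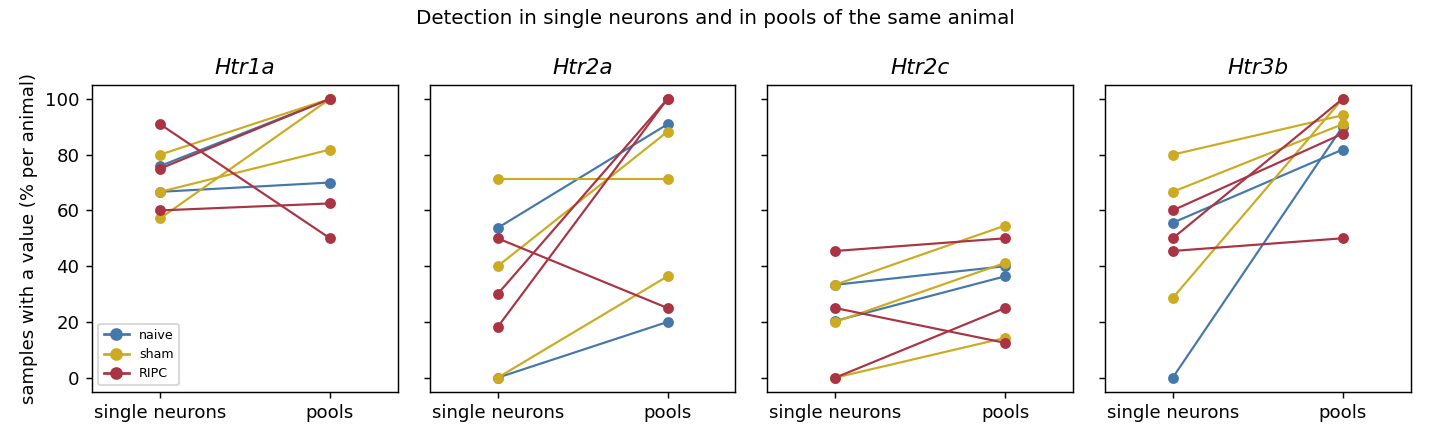
Percent of samples with a value in single neurons and pools of the same animal, 1 line for each of 8 animals, colored by treatment. All 8 lines rise for Htr3b, while for Htr1a 7 rise and 1 falls.

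The share detected was higher in samples of 5 cells than in single neurons for all 4 genes, and lower than independent cells would give. Between these it was not steady, with Htr2c at 14.3% in the 14 samples of 3 cells. Htr3b went from 52.0% in single neurons to 88.9% in the 36 samples of 5 cells, and independent cells at the single-neuron share would give 97.5%. Htr1a went from 73.5% to 94.4%, against 99.9%. Htr2a reached 66.7% in samples of 5 cells, against 94.9%, and Htr2c 44.4%, against 70.1%. The shares from independent cells carry the error of the single-neuron shares, which was not added. They also rest on the 98 of 115 single neurons that passed the limit on assays. Cells within a pool faced no such limit one by one. Animals contributed unequally to each cell number, and this comparison was given no test. The median Ct of Htr1a fell from 15.2 to 13.9 cycles between 1 and 5 cells, and that of Htr3b from 20.8 to 18.9.

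**Figure D4:**
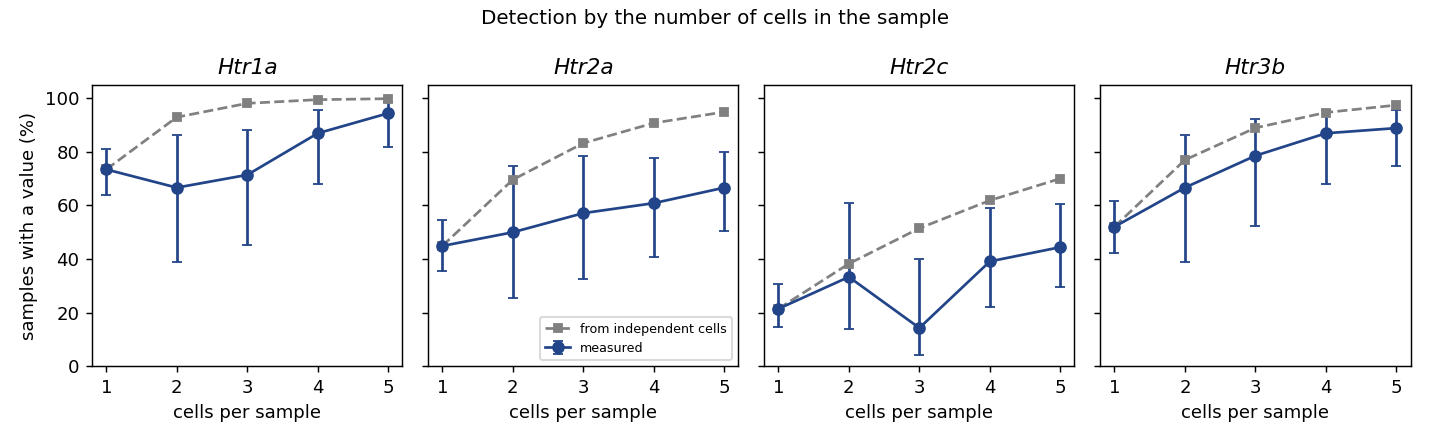
Percent of samples with a value against the number of cells per sample, measured (blue, with 95% Wilson intervals) and from independent cells at the single-neuron share (grey). Measured shares of Htr2a at 5 cells reach 66.7%, below the 94.9% of the grey line.

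Single neurons were also split into 3 classes of yield, by the number of other genes detected in them. Htr2c was found in 2 of 33 neurons of the lowest class (43 to 60 genes) and in 12 of 33 of the highest (74 to 142 genes). Between the same classes Htr1a went from 54.5% to 87.9%, Htr2a from 30.3% to 60.6% and Htr3b from 45.5% to 60.6%. Shares of all 4 genes thus moved with yield, and joint detection is given beside the count expected within these classes.

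Single neurons held from none to all of the members. Of 98 neurons, 4 had none of the 4 receptors, 31 had 1, 36 had 2, 23 had 3 and 4 had all 4. Htr1a was detected without either Htr2 receptor in 31 neurons and with Htr2a or Htr2c in 41. Htr2a or Htr2c without Htr1a was found in 14, and none of the 3 in 12. Transcripts of the Gi-coupled receptor and of a Gq-coupled receptor were thus found together in 41.8% of neurons (95% Wilson interval 32.6 to 51.7%).

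Joint detection of pairs was close to what separate detection gives. Htr1a and Htr2a were both detected in 31 neurons, with 34.0 expected from their shares within the classes of yield. Htr1a and Htr2c were both detected in 18, with 17.1 expected, and Htr2a and Htr2c in 10, with 10.9 expected. Htr3b was found with Htr1a in 39 (38.3 expected), with Htr2a in 21 (23.7) and with Htr2c in 10 (11.7). The correlation of detection (phi) over the 6 pairs ran from -0.08 to 0.14, and these neurons share animals and chips, so no test is attached. For Htr1a and Htr2a the phi was 0.09 in the 54 neurons of naive replicate 3 and -0.27 in the 44 neurons of the other animals. The median phi over the 6 pairs was -0.01, against 0.08 over all pairs of genes, 0.15 among the histamine, 0.11 among the adrenergic receptor genes, 0.08 among the muscarinic and 0.08 for the only pair of dopamine receptor genes that could be used.

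Detection of the members was also set beside the transmitter genes of the same single neurons. Htr2a was detected in 39 of 68 neurons with Chat (57.4%) and in 5 of 30 without (16.7%), higher with Chat in all 5 animals that had at least 2 of both kinds. The gap was 52.6 points in naive replicate 3 and 26.6 in the other animals, and the median number of assays was 72.5 and 64. Htr1a was detected in 67.6% and 86.7%, lower with Chat in 4 of 5 animals. Htr2c was detected in 17 of 51 neurons with Gad1 or Gad2, the enzymes of GABA synthesis (33.3%), and in 4 of 47 without (8.51%), higher with Gad in 2 of 4 animals and equal in the other 2. In the lowest class of yield it was found in 1 of 18 with and 1 of 15 without. The counts were 5 of 14 and 2 of 18 in the middle class, and 11 of 19 and 1 of 14 in the highest. Htr2a was detected in 33.3% and 57.4%, lower with Gad in 4 of 4 animals. Of 41 neurons with Chat and no Gad transcript 2 had Htr2c (4.88%), against 13 of 27 with both Chat and Gad (48.1%), 4 of 24 with Gad and no Chat (16.7%) and 2 of 6 with neither (33.3%). The number of assays differed with these classes, with a median of 71, 77, 65.5 and 59 in that order. Htr2c was detected in 8 of 14 neurons with Fos, an activity-regulated gene, and in 13 of 84 without, where the median number of assays was 96.5 and 68. Neurons with and without Th, the rate-limiting enzyme of catecholamine synthesis, had Htr1a in 70.9% and 76.7%, Htr2a in 49.1% and 39.5%, Htr2c in 27.3% and 14.0%, and Htr3b in 52.7% and 51.2%. The median number of assays was 75 and 63, and the gap of Htr2a was 18.1 points in naive replicate 3 and 1.28 in the other animals.

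**Figure D5:**
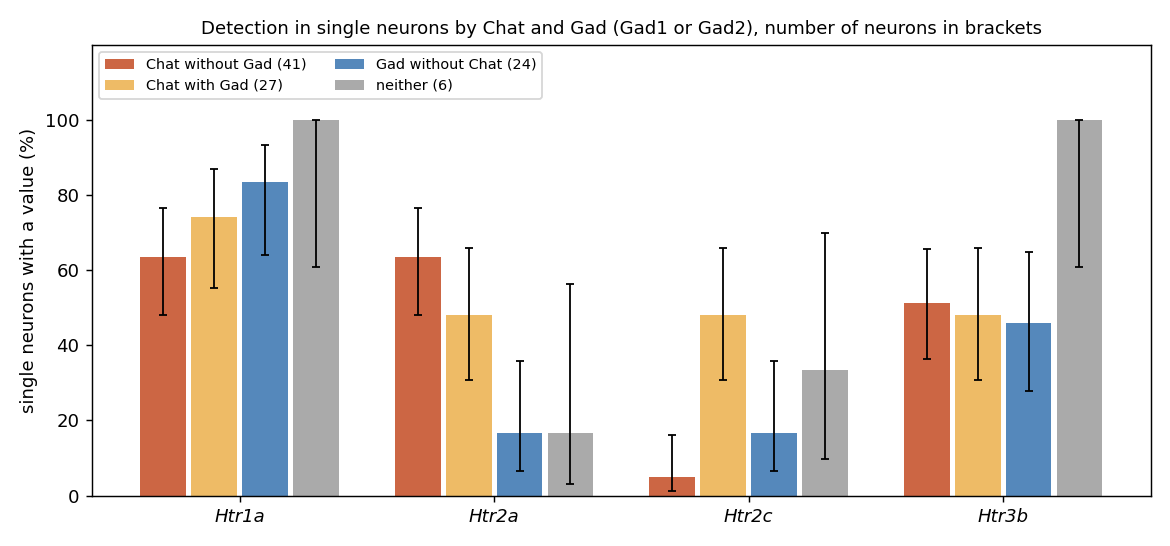
Percent of single neurons with a value of each receptor gene, by detection of Chat and of Gad1 or Gad2, with 95% Wilson intervals and the number of neurons in brackets. Htr2c reaches 48.1% where both are detected and 4.88% in neurons with Chat alone.

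The genes most like each member were ranked by phi over the 98 single neurons and by the correlation of level over samples with both genes. These values describe samples that share animals and chips. Among the genes most like Htr2a by detection were Trhr, the receptor of thyrotropin-releasing hormone (phi 0.43), and Rgs2, a regulator of Gq signaling (0.41). Rgs2 was detected in 88.6% of neurons with Htr2a and 50% without, and was also the gene most like Htr2a by level (Pearson r = 0.56 over 85 samples). Averaged within the classes of yield, phi with Htr2a was 0.38 for Trhr and 0.34 for Rgs2. In naive replicate 3 and in the other animals it was 0.44 and 0.34 for Trhr, and 0.52 and 0.24 for Rgs2. The 95th percentile of phi with Htr2a over 142 genes was 0.36. Detection of Htr2c was most like that of Nmbr, the neuromedin B receptor (0.47), Npy1r, a neuropeptide Y receptor (0.41), and Sstr3, a somatostatin receptor (0.40). Averaged within the classes of yield these were 0.47, 0.22 and 0.19. By level Htr2c was most like the channel genes Kcna1 (0.53 over 49 samples) and Scn1a (0.50 over 48). Within single neurons and within pools these were 0.31 and 0.44 for Kcna1, and 0.32 and 0.53 for Scn1a.

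Detection of Htr1a was most like that of Cebpd, a transcription factor (phi 0.37), E2f1, a cell-cycle factor (0.32), and Chrm5, a muscarinic receptor (0.32), and its level was most like that of IL6r, the interleukin 6 receptor (r = 0.74 over 129 samples), Kcnn4, a calcium-activated potassium channel (0.68), and Ltb4r, a leukotriene receptor (0.66). Among the genes most like Htr3b by detection were the muscarinic receptor Chrm1 (0.33) and Cebpd (0.27), and its level was most like that of Htr2c (0.49 over 37 samples), Tac1, the substance P precursor (0.47), and IL6r (0.47). The coding sequence of Htr1a holds no intron, so primers within it cannot span one. Over 14 panel genes of that kind with enough values, listed after the values were seen, the median r of level was 0.39 with Htr1a, 0.29 with Htr3b, 0.20 with Htr2c and -0.03 with Htr2a, against 0.11, -0.00, 0.03 and 0.02 over the other genes. The part of genomic DNA in these values was not tested.

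The 6 other serotonin receptor genes on the panel were detected in 0.538% to 76.9% of the 186 samples. Htr1f (76.9%), Htr1b (75.8%) and Htr1d (60.2%), which like Htr1a encode Gi-coupled receptors, came first. Their coding sequences also hold no intron, and the part of genomic DNA in their values was not tested. Htr6 (34.4%) and Htr7 (26.3%), which encode receptors coupled to Gs proteins, were found about as often as Htr2c, and Htr2b in 1 sample. Levels of Htr1a moved with those of Htr1f (r = 0.59 over 121 samples), Htr1b (0.56 over 121) and Htr7 (0.49 over 46). For detection in single neurons, phi with Htr1a was 0.14 for Htr1f, 0.16 for Htr1b and 0.24 for Htr7, and 0.042, 0.11 and 0.18 within the classes of yield.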

How the data were processed

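Neurons captured by laser from the DMV of 10 rats were assayed by multiplex microfluidic RT-qPCR after preamplification. The deposited values are raw Ct, with no value below the limit of detection; per the study's methods, assays that failed melt curve checks had been dropped. Samples, animals, sides and cell numbers came from the labels. The chip of each sample was not used, and no chip effect was tested. No sequence is shown.

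Runs of a sample were averaged, as were duplicate assays of a gene. A sample needed a value in at least 25% of the assays, which kept 190 of 218 columns, with 50% as an alternative. The methods state a limit of 50%, which keeps 84 columns. Level is the median Ct of the 35 most often detected genes minus the Ct of the gene. The replicate is the animal. Shares and mean levels per animal (at least 2 samples, or values) were fitted over all genes by the limma package (version 3.58.1, R 4.3.3; two-sided tests), with Benjamini-Hochberg adjustment within each contrast and a threshold of 0.05. Genes found in 5% to 95% of samples were tested by share, and those with at least 2 animals per treatment, or 4 pairs, by level. Sides and sample types were fitted as differences within animals. A missing level dropped that animal for that gene. For members, exact permutations of animals were run as well (scipy 1.17.1). The share fits were also run on simulated pools in which animals of a treatment differed by counting error only. The spread between animals seen here was not simulated. Depth is given as assays with a value per sample.

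The members, lists and limits were chosen with earlier results of these data known. The text names the members, other serotonin receptor genes, and for each member the 3 genes most like it by detection (phi) and the 3 by level (at least 30 samples); some of these are not reported here. Alternatives covered the limits on samples, genes and late Ct, sample type, centring, scale, repeat runs, a covariate, a replicate block, the neuron with the doubtful title (added after seeing the data) and leaving out each animal.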

Additional observations from a re-analysis of the deposited data

Results flagged for a closer look

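In sham animals the share of pools with Htr3b was 45.5% in replicate 3 (5 of 11 pools), while the nearest of the other 3 animals stood at 90.9%. The gap took up 0.833 of the whole range of the 4 animals, just past the 95% limit of Dixon's test. Replicate 3 had the highest mean number of assays per pool of all animals (100.2), and its share of pools with Htr1a was 72.7%. This was 1 of 22 groups of animals tested in this way, and chance marks about 1 in 20 such groups. The cause was not tested.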

How the results depend on the processing

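For the members, 677 values were recomputed under alternatives. Of these, 593 kept their direction and their side of the threshold, 80 changed sign and none of those was called, 3 passed only under the alternative and 1 no longer passed. The number of animals, 3 or 4 per treatment, and the 43 to 149 assays with a value per sample limit what could be detected. The causes of the changes below were not tested.

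Animals of different treatments that carry the same number are different animals, and their deviations correlated at -0.345 to 0.362 (median 0.158 over 9 pairs, against -0.066 over 24 other pairs), so they were not taken as paired. With the animal number as a replicate block, 0 genes were called in each of the 6 treatment contrasts, as without it. Under the block Htr3b changed sign by share, to -0.71 points for sham minus naive and 0.38 for RIPC minus sham, and Htr1a by level, to 0.060 for sham minus naive.

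For shares of pools, sham minus naive of Htr2a became 22.8 points with 50% of the assays required, 1.60 with no limit, 10.3 in single neurons and 7.38 in single neurons and pools together. With 50% required, Htr2c became 1.501 and Htr3b -7.38, and in single neurons Htr1a became -3.36. With 50% required, RIPC minus naive was -19.0 for Htr1a and -6.28 for Htr2c, and RIPC minus sham -27.0 for Htr1a, with no change of sign. For RIPC minus naive, single neurons gave 4.01 for Htr1a, 5.88 for Htr2a, -3.37 for Htr2c and 24.0 for Htr3b, and both sample types together gave 7.17 for Htr1a, -5.61 for Htr2a and 1.94 for Htr3b. Htr3b also became 6.94 with no limit, 0.081 with the mean number of assays as a covariate and 0.027 on the arcsine scale. In single neurons the naive mean weighs replicate 2 (3 neurons, with neither Htr2a nor Htr3b) equally with replicate 3 (54 neurons). Counted over all neurons, naive, sham and RIPC shares were 50.9%, 50% and 28% for Htr2a. They were 52.6%, 50% and 52% for Htr3b and 21.1%, 18.8% and 24% for Htr2c. For RIPC minus sham, single neurons gave 7.37 for Htr1a, -4.42 for Htr2a and 5.71 for Htr2c, and both types together gave -13.00 for Htr2a.

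For levels, sham minus naive of Htr3b became -0.027 with both types together. RIPC minus naive became -0.18 with no limit and -0.16 in single neurons for Htr1a, and 0.15 with no limit and 0.97 with Ct above 20 taken as not detected for Htr3b, which gave 0.73 for RIPC minus sham. For left minus right, the share of Htr1a became -0.25 points with no limit and -4.79 in pools, and that of Htr3b 3.81 without late values, 0.42 in pools and 19.8 in single neurons. The level of Htr1a became -0.011 with first runs only, and that of Htr3b -0.18 with 50% required and -0.084 without late values. For the Htr2c level between sides, limma's adjusted p over 16 alternatives lay between 0.655 and 0.971.

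For pools minus single neurons, Htr2a passed with no limit (32.3 points) and with first runs only (33.4). The limit of 50% could not be fitted there, because too few animals were left. By level, 2 genes were called without late values, Gad2 and Htr1d, which are named after their values were seen, and Htr3b became 0.066 with no limit and 0.40 with all assays as the centre. The balance of Htr2c to Htr1a, sham minus naive, became -0.18 cycles with 50% required and -0.26 in pools, and that of Htr2a to Htr1a, RIPC minus sham, 0.32 in pools.

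Leaving out 1 animal at a time, shares for sham minus naive ran from -20.7 to 14.8 points for Htr2a and -3.29 to 15.5 for Htr3b. For RIPC minus naive they ran from -22.6 to 2.50 for Htr1a, -3.79 to 40.8 for Htr2a and -10.7 to 14.3 for Htr3b, and for RIPC minus sham from 4.402 to 41.9 for Htr2a, -17.8 to 0.91 for Htr2c and -15.8 to 11.1 for Htr3b. Levels for sham minus naive ran from -0.58 to 0.26 for Htr1a, -0.21 to 0.81 for Htr2a and -0.33 to 0.32 for Htr3b. For RIPC minus naive they ran from -0.77 to 1.42 for Htr1a and -1.42 to 0.59 for Htr3b, and for RIPC minus sham from -0.60 to 1.59 and -1.45 to 0.56. Where 1 animal stayed in a group, it was taken to vary like the others. For left minus right, shares ran from 3.34 to 12.9 for Htr1a, 0.55 to 8.29 for Htr2a, -1.35 to 3.93 for Htr2c and -7.79 to 1.59 for Htr3b, and levels from -0.030 to 0.26 for Htr1a and -0.015 to 0.38 for Htr3b. For pools minus single neurons, the genes called ran from 9 without sham replicate 1 to 54 without RIPC replicate 1, with 12 without naive replicate 3. Shares there ran from 7.02 to 18.99 points for Htr1a, 26.7 to 41.9 for Htr2a, which passed without RIPC replicate 1, and from 31.2 to 43.4 for Htr3b, which was lost without sham replicate 1. The level of Htr3b ran from -0.78 to 0.37, and the balance of Htr2a to Htr1a, RIPC minus sham, from -0.83 to 0.27.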
